A study of Salmo salar with 72 samples.

Results

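The genes described here are those of the extracellular matrix and of the receptors and enzymes around it in Atlantic salmon hepatocytes exposed to arsenic. They were chosen by name alone, as the genes whose deposited name contains collagen alpha, laminin subunit, fibronectin, integrin alpha, integrin beta, thrombospondin, connective tissue growth factor (CTGF), matrix metalloproteinase (MMP) or metalloproteinase inhibitor (TIMP). That gave, of the 25830 genes in the table, 114 that fall into a class by role and 40 more that share only words of the name. By role they were 37 collagens, 14 laminins, 7 fibronectins, 21 integrin alpha and 5 integrin beta subunits, 9 thrombospondins, 4 CTGF genes, 12 MMPs and 5 TIMPs. The 40 others include ADAMTS proteases with thrombospondin motifs and proteins with fibronectin type III domains. Most symbols (131) are of the LOC type, and a name ending in "-like" is an annotation by similarity.

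Hepatocytes came from 6 male salmon, isolated by perfusion of the liver with collagenase, cultured on porous scaffolds coated with laminin in medium with fetal bovine serum, and exposed for 48 h. Arsenite (AsIII, the trivalent inorganic form) was given at 0, 3, 10, 30 and 100 µM and arsenobetaine (AsB, a methylated organic form common in fish) at 0, 10, 50, 100 and 500 µM, each to cells of 6 fish. Arsenate (AsV, the pentavalent inorganic form) was given at 0, 10, 50 and 100 µM to cells of fish 1 to 3. Each of the 72 libraries is 1 culture of 1 fish, each compound has its own control cultures, and all doses of a compound share that control. Groups follow the titles of the samples; some other label texts name different doses or compounds.

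Collagens and laminins form the fibres and the basement membranes to which cells attach, and fibronectin bridges them to cells. Integrins are the receptors, each a pair of an alpha and a beta subunit, that bind these proteins and pass force and signals to the cytoskeleton. MMPs cut matrix proteins and TIMPs block MMPs, while CTGF and thrombospondins are matricellular proteins, secreted factors that modulate how cells read the matrix. In the mammalian liver hepatocytes make plasma fibronectin, whereas fibrillar collagen comes mainly from stellate cells and fibroblasts. Enzymatic isolation of hepatocytes removes their matrix, and cells in culture rebuild part of it.

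AsIII libraries held 30.9 to 86.4 M reads, those of AsV 31.8 to 48.3 M and those of AsB 32.7 to 68.4 M. In the median AsIII library 208.5 genes were listed at 0, against 249.5 in the median AsV and 1608 in the median AsB library. Between 8 and 25 members were at 0 in the AsB control libraries, against 1 to 6 in the AsIII controls. Values are read counts divided by a size factor per library, so levels of different genes are not compared here. Changes are log2 changes with their standard error (SE) from limma on log2(value + 1), and a gene is called where the p-value, adjusted over all genes tested by the Benjamini-Hochberg method, is under 0.05. The AsIII libraries of fish 1 at 100 µM and of fish 5 at 30 µM stood apart, with 1694 and 1396 genes at 0 against at most 298 in the other libraries of these 2 groups. Of the AsV libraries those of fish 3 at 10, 50 and 100 µM stood apart, with 1729, 1505 and 1069 genes at 0 against at most 676 in the others. Without both AsIII libraries, 75, 77, 62 and 63 members were called at 3, 10, 30 and 100 µM AsIII, against 70, 70, 61 and 62 with them.

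AsIII raised more of these genes than it lowered at every dose. At 3 µM, 57 members were higher and 13 lower, beside 54.5% of all 25801 tested genes called, 29.5% higher and 25% lower. At 10 µM, 58 were higher and 12 lower (all genes 47.2%, as 26.8% and 20.5%). At 30 µM, 49 were higher and 12 lower (all genes 41.6%, as 23.9% and 17.7%). At 100 µM, 51 were higher and 11 lower (all genes 39.9%, as 22.6% and 17.3%). The median log2 change of the members was 0.40, 0.42, 0.29 and 0.36 at the 4 doses, against 0.05, 0.06, 0.04 and 0.04 over all genes. Every member passed the filter on low values in the AsIII libraries, although 71 had a mean under 50 in the controls. The median control mean was 55.8 over members and 183 over all genes. A member under 10 in every control passed through treated libraries alone, and a fall of such a gene can hardly be called. With libraries scaled to their total reads, the median of all genes moved to -0.21, -0.24, -0.09 and -0.05, and the members split into 41 higher and 23 lower at 3 µM, 42 and 25 at 10 µM, 38 and 15 at 30 µM, and 44 and 14 at 100 µM. All genes then split into 5654 higher and 9305 lower at 3 µM and 4367 and 9083 at 10 µM. The split of all genes was 4910 and 6140 at 30 µM, and 5031 and 5471 at 100 µM.

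**Figure D1:**
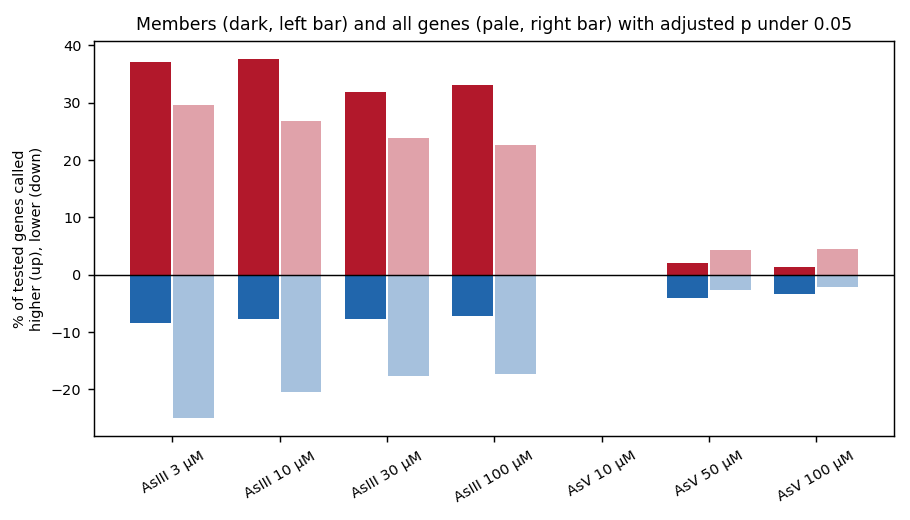
Share of tested genes with an adjusted p under 0.05 at each AsIII and AsV dose against the control of the same compound, higher above 0 and lower below 0, for the members (dark, left bar) and for all genes (pale, right bar). At 3 µM AsIII 57 members were higher and 13 lower, and at 10 µM AsV no gene was called.

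Across the doses, 107 members (69.5%) were called at 1 or more AsIII doses, against 74.6% of all genes tested, and 47 at none. All 4 doses were higher in 28 members (18.2%, all genes 10.6%) and lower in 3 (1.95%, all genes 7.43%). Another 28 were higher at 3 or 10 µM and not called at 30 or 100 µM (18.2%, all genes 13%), and 12 were higher at 30 or 100 µM and not called at 3 or 10 µM (7.79%, all genes 4.43%). The members took 0.398% ± 0.0202 (SD, n = 6) of the reads in AsIII controls and 0.471% ± 0.0332 at 3 µM. In bulk libraries, fewer cells of a type and less RNA per cell cannot be told apart.

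Neighbouring doses were also compared directly. From 3 to 10 µM, 11 members were higher and 21 lower, beside 30.3% of all genes, 14.6% higher and 15.7% lower. With fish as a block this step gave 26 higher and 21 lower members, and 5585 and 5113 of all genes, so the balance of the members depends on the fit. From 10 to 30 µM, 6 were higher and 20 lower (all genes 21.4%, as 9.98% and 11.4%), a split that became 15 higher and 16 lower with libraries scaled to total reads. From 30 to 100 µM, 1 was higher and 3 were lower (all genes 1.67%, as 0.147% and 1.53%).

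**Figure D2:**
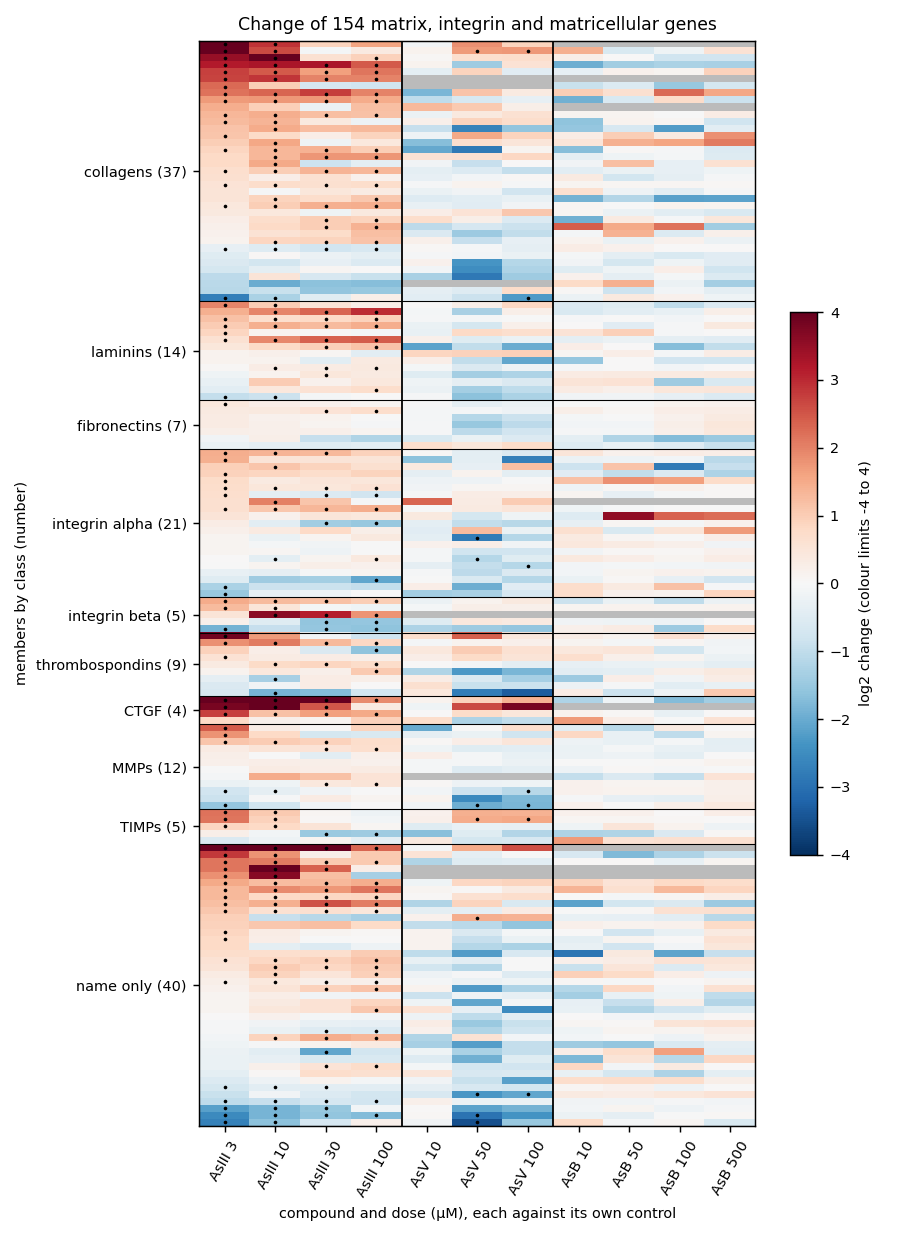
Log2 change of each member (rows, by class, ordered by the change at 3 µM AsIII) at each dose (columns) against the control of the same compound. Black dots mark an adjusted p under 0.05 and grey cells were not tested; the dots lie almost wholly in the AsIII columns, with 9 at 50 µM AsV, 7 at 100 µM AsV and 0 at the AsB doses.

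Of the CTGF and thrombospondin genes among the members, the CTGF-like LOC106572617 showed the largest rise. It had been set for naming beforehand, with earlier results of these data known, so its rise is described and not offered as a test. CTGF is a secreted protein induced by transforming growth factor beta (TGF-beta) and by the mechanosensitive coactivator YAP, and it promotes matrix production. The CTGF-like gene LOC106572617 ran from 7.86 to 21.9 in AsIII controls (median 13.2), from 349 to 931 at 3 µM (median 578) and from 729 to 1501 at 10 µM (median 1071). Its range was 154.1 to 357 at 30 µM (median 256) and 7.42 to 121 at 100 µM (median 56.98). All libraries at 3, 10 and 30 µM lay above every control, and at 100 µM the groups overlapped through 1 library, that of fish 1. The log2 changes were 5.47, 6.28, 4.21 and 1.90 (each ± 0.41), with adjusted p-values from 1.65e-13 to 4.41e-04 (limma). The fall from 10 to 30 µM was -2.06 ± 0.41 and that from 30 to 100 µM -2.32 ± 0.41 (adjusted p = 3.39e-04 and 5.57e-04, limma).

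A second copy, ctgf, had its peak at the lowest dose. It ran from 185 to 646 in AsIII controls (median 241), from 1412 to 2562 at 3 µM (median 1749) and from 519 to 771 at 10 µM (median 603). At 30 µM the range was 566 to 1444 (median 775) and at 100 µM 627 to 955 (median 760.1). The control library of fish 1, at 646, overlapped the 3 higher doses and not the 3 µM group. Changes were 2.74, 1.16, 1.64 and 1.52 (each ± 0.23), and the step from 3 to 10 µM was -1.58 ± 0.23 (adjusted p = 3.29e-06, limma). The third, LOC106570673, was near 0 in controls (0 to 9.83) and reached 14.6 to 123 at 3 µM and 42.1 to 155.6 at 10 µM. With every control under 10, it passed the filter on low values only through treated AsIII libraries. It was called higher at 3, 10 and 30 µM, with 4.57 ± 0.74 at 10 µM, and the 4th CTGF gene was called at no dose.

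Thrombospondins are large matricellular glycoproteins that bind integrins, and in mammals thrombospondin-1 activates latent TGF-beta. Of the 9 genes, 3 were higher and 0 lower at 3 µM, 2 and 2 at 10 µM, 2 and 0 at 30 µM, and 3 and 1 at 100 µM. The called share was 33.3%, 44.4%, 22.2% and 44.4%, against 54.5%, 47.2%, 41.6% and 39.9% of all genes. The thrombospondin-1-like gene LOC106610834 ran from 233 to 806 in controls (median 447), 1056 to 2256 at 3 µM (median 1447) and 1522 to 2547 at 10 µM (median 1899.6). It then ran from 655 to 1607 at 30 µM (median 1276) and from 385 to 1267 at 100 µM (median 939.5). The groups at 3 and 10 µM lay above all controls and those at 30 and 100 µM overlapped them. Changes were 1.82, 2.09, 1.30 and 0.82 (each ± 0.33), and the last one (adjusted p = 0.0455, limma) was lost with libraries scaled to total reads, in edgeR and without any 1 of fish 1 to 5. Of the other thrombospondin genes, the thrombospondin-1-like LOC106608163 rose by 3.87 at 3 µM alone, and the thrombospondin-4-B-like LOC106561998 fell by 1.62 at 100 µM. The thrombospondin-1-like LOC106587655 was called higher and LOC106571097 lower, each at 1 of 4 AsIII doses. The thrombospondin-4-B-like LOC106585023 was called higher at 3 of 4.

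**Figure D3:**
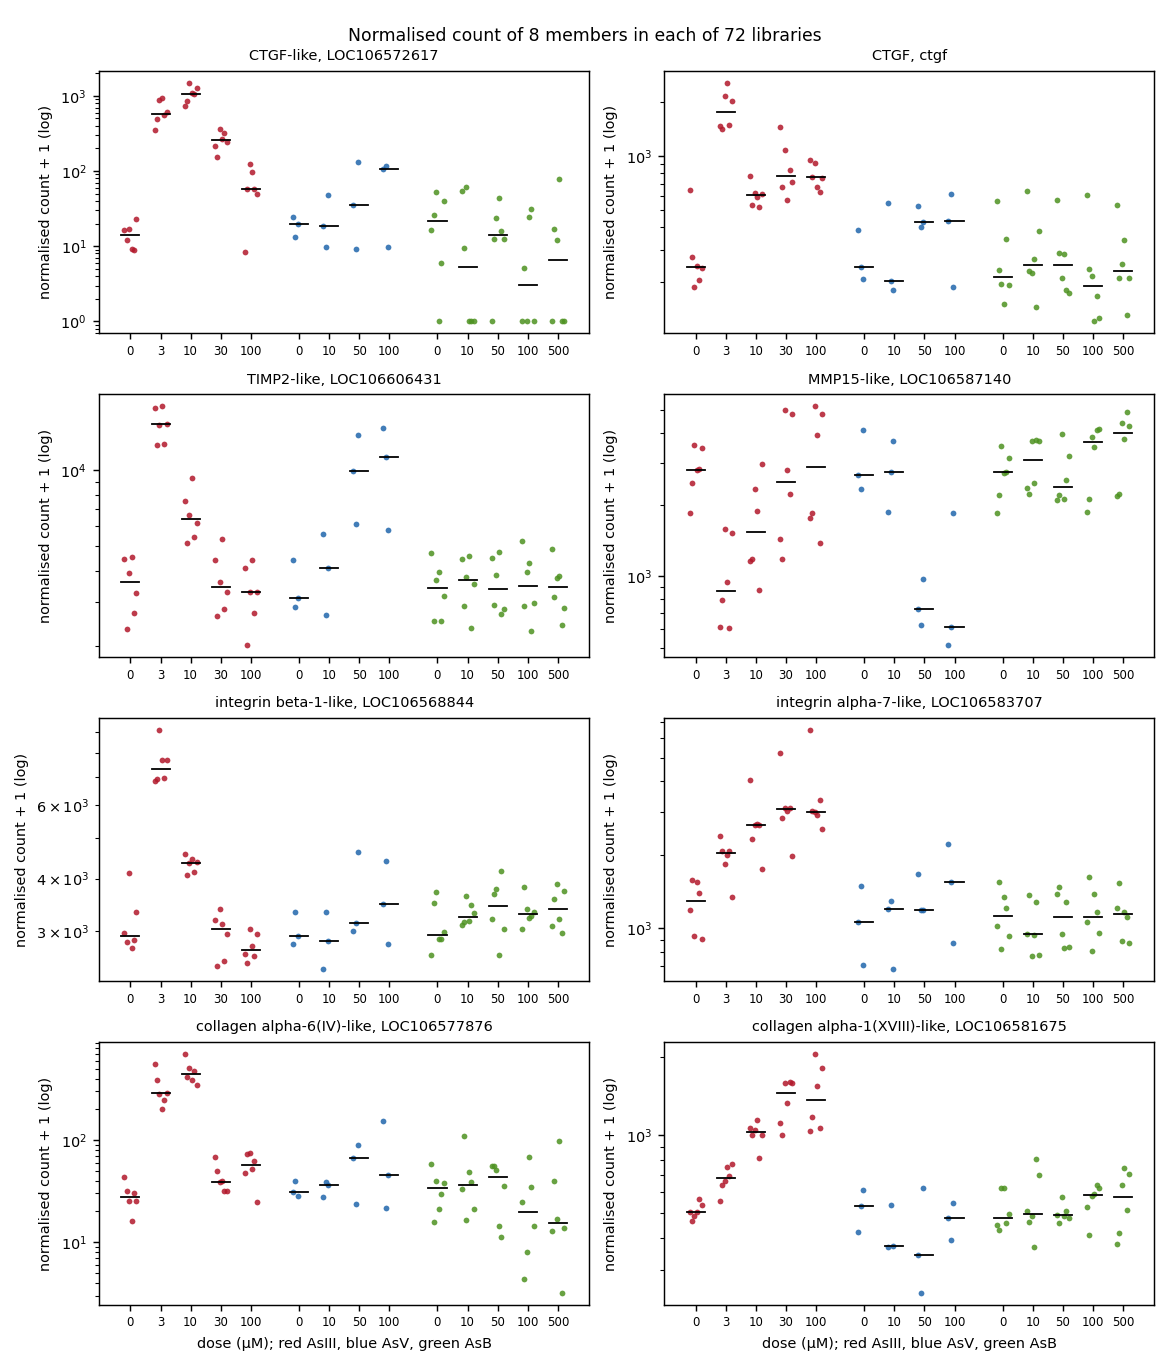
Normalised count + 1 (log axis) of 8 members in each of the 72 libraries, by dose of AsIII (red), AsV (blue) and AsB (green); points are libraries, ordered by fish within a group, and bars are medians. The CTGF-like gene LOC106572617 peaks at 10 µM AsIII (median 1071), the TIMP2-like gene LOC106606431 at 3 µM (median 15256), and the collagen alpha-1(XVIII)-like gene LOC106581675 is at 1457 and 1362 at 30 and 100 µM.

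Among the collagens, 16 of 37 were higher and 2 lower at 3 µM, 20 and 2 at 10 µM, 14 and 1 at 30 µM, and 16 and 1 at 100 µM. Their median change was 0.66, 0.95, 0.60 and 0.90. The called share was 48.6%, 59.5%, 40.5% and 45.9%, against 54.5%, 47.2%, 41.6% and 39.9% of all genes. The fibrillar genes did not move together. Collagen I, the main fibre of scar tissue, is in mammals built from 2 kinds of chain. The collagen alpha-2(I)-like gene LOC106577842 was lower at all 4 doses. It ran from 785 to 991 in controls (median 830.3), 527 to 787 at 3 µM (median 711), 552 to 686 at 10 µM, 419.7 to 565 at 30 µM and 458 to 605 at 100 µM. From 10 µM on every library lay below every control, with changes of -0.32, -0.51, -0.76 and -0.64 (each ± 0.10). The collagen alpha-1(I)-like gene LOC106567252 rose by 0.66, 0.99, 1.35 and 1.31 at the same doses. The other genes of that name did not share this. LOC106563133 was called higher at 2 of 4 AsIII doses and LOC106600852 at 1, and LOC106589632 and LOC106610502 were called at none.

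Basement membrane collagen IV showed opposite changes in single chains. The collagen alpha-6(IV)-like gene LOC106577876 ran from 15.0 to 42.2 in controls (median 26.9), 202 to 548 at 3 µM (median 285) and 347 to 692 at 10 µM (median 439). It was at 30.7 to 66.7 at 30 µM and 23.5 to 73.3 at 100 µM. The groups at 3 and 10 µM lay wholly above the controls, with changes of 3.49 ± 0.27 and 4.05 ± 0.27, and the 2 higher doses overlapped them (0.92 ± 0.27 at 100 µM, called). From 10 to 30 µM it fell by 3.45 ± 0.27 (adjusted p = 1.28e-11, limma), and every library at 30 µM lay below every library at 10 µM. Its neighbour in the RefSeq gene table of assembly Ssal_v3.1, the collagen alpha-5(IV)-like LOC106577877 (also named after its values were seen), rose by 1.11 at 3 µM and was not called at the other doses.

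The 2 genes named collagen alpha-2(IV)-like diverged. LOC106582131 ran from 94.1 to 152.7 in controls (median 107), 9.37 to 25.9 at 3 µM (median 15.9) and 28.0 to 74.1 at 10 µM (median 51.8). At 30 µM it was 42.6 to 135 and at 100 µM 95.3 to 194. LOC106586671, chosen after its values were seen, ran from 29.7 to 60.9 in controls, 64.2 to 154.2 at 3 µM, 88.3 to 137 at 10 µM and 24.7 to 50.9 at 100 µM. The first lay below all controls and the second above all controls at 3 and 10 µM, with changes at 3 µM of -2.72 ± 0.28 and 1.26 ± 0.25. The ratio of LOC106586671 to LOC106582131 had a median of 0.340 in controls (0.285 to 0.549), 7.06 at 3 µM (3.17 to 10.2) and 0.296 at 100 µM.

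Collagen VI is a microfibrillar collagen that links cells to the matrix, and collagen VIII a short-chain collagen. Of 7 genes named collagen VI, 4 were higher at 1 or more doses and 3 were called at none. Of 5 named collagen VIII, 4 were higher and 1 was called at none. Over all genes tested, 74.6% were called at 1 or more AsIII doses. The collagen alpha-2(VI) gene col6a2 ran from 16.4 to 44.9 in controls (median 26.4), 361 to 1330.5 at 3 µM (median 509) and 135 to 355 at 10 µM (median 153.7). At 30 µM it was 2.19 to 59.5 and at 100 µM 22.4 to 94.5, both overlapping the controls. Its change was 4.36 ± 0.49 at 3 µM and -2.72 ± 0.49 from 10 to 30 µM. The gene LOC106591834, collagen alpha-2(VI)-like, instead rose at all 4 doses, by 1.16 to 1.47. The collagen alpha-1(VIII)-like LOC106597902 also rose at all 4 doses, from 9272 to 10920 in controls to 11566 to 18275 at 3 µM and 13501 to 19557 at 100 µM.

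The collagen alpha-1(XVIII)-like gene LOC106581675 increased with dose. Collagen XVIII is a basement membrane collagen that hepatocytes express in mammals and whose fragment endostatin limits vessel growth. Its range was 464 to 564 in controls (median 501), 555 to 771 at 3 µM (median 678), 812 to 1138 at 10 µM (median 1022), 1002 to 1604 at 30 µM (median 1457) and 1039 to 2056 at 100 µM (median 1362). The groups from 10 µM on lay above all controls. Changes were 0.41, 0.98, 1.41 and 1.46 (each ± 0.14), with steps of 0.57 ± 0.14 from 3 to 10 µM and 0.43 ± 0.14 from 10 to 30 µM (adjusted p = 0.00244 and 0.0295, limma). The step from 10 to 30 µM was lost without the 2 AsIII libraries that stood apart, and without any 1 of fish 3 to 6.

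Laminins are trimers of an alpha, a beta and a gamma chain and organise basement membranes. Of 14 genes, 5 were higher and 1 lower at 3 µM, 6 and 1 at 10 µM, and 7 and 0 at both 30 and 100 µM. That is 42.9% called at 3 µM and 50% at each higher dose, against 54.5%, 47.2%, 41.6% and 39.9% of all genes. The laminin alpha-3-like gene LOC106569186 ran from 1035 to 1487 in controls (median 1266), 2477 to 3038 at 3 µM (median 2758), 1631 to 2456 at 10 µM, 1843 to 2630.1 at 30 µM and 1891 to 2908 at 100 µM. All libraries of all doses lay above the controls. The changes were 1.16, 0.66, 0.79 and 0.94 (each ± 0.12).

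The laminin beta-4-like gene LOC106561510 rose with dose, from 61.5 to 183 in controls (median 87.1) to 87.8 to 203 at 3 µM (median 164.6), 288 to 436 at 10 µM (median 375), 393 to 663 at 30 µM and 341 to 684 at 100 µM (median 566). It overlapped the controls at 3 µM alone. Changes were 0.61, 1.91, 2.36 and 2.42 (each ± 0.22). Of 2 genes named laminin gamma-1-like, LOC106599430 was lower at 3 and 10 µM (-0.97 and -0.84), and LOC106569067 rose by 0.29 to 0.39 at 10, 30 and 100 µM. At 10 µM the change of LOC106569067 was -0.02 with libraries scaled to total reads.

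Fibronectin is secreted into plasma by mammalian hepatocytes. Of the 7 fibronectin genes, 1 was higher at each of 3, 30 and 100 µM, 0 were called at 10 µM and 0 were lower. The called share was 14.3%, 0%, 14.3% and 14.3%, against 54.5%, 47.2%, 41.6% and 39.9% of all genes. The gene LOC100380696 ran from 35701 to 47519 in controls (median 41571) and from 49427 to 64425 at 3 µM (median 53907), without overlap. Its change was 0.42 ± 0.11 at 3 µM (adjusted p = 0.00184, limma), which was lost with libraries scaled to total reads, and 0.25, 0.17 and 0.12 (not called) at 10, 30 and 100 µM. With fish as a block the change at 10 µM was called (adjusted p = 0.00827). The fibronectin-like LOC106574791 was called at 30 and 100 µM (0.56 ± 0.18 and 0.69 ± 0.18), with ranges of 16533 to 26417 in controls and 25658 to 46019 at 100 µM that overlapped. With fish as a block it was called at all 4 AsIII doses. The other 5 fibronectin genes were called at no dose.

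Integrin genes of both kinds of subunit were called in both directions. Of 21 alpha genes, 7 were higher and 2 lower at 3 µM, 5 and 1 at 10 µM, 3 and 2 at 30 µM, and 3 and 3 at 100 µM. Of 5 beta genes, 2 were higher and 1 lower at 3 µM, 3 and 0 at 10 µM, and 2 and 2 at both 30 and 100 µM. The called share was 42.9%, 28.6%, 23.8% and 28.6% for alpha genes and 60%, 60%, 80% and 80% for beta genes. For all genes it was 54.5%, 47.2%, 41.6% and 39.9%. Beta-1 is the common partner of most matrix-binding alpha subunits, and the integrin beta-1-like gene LOC106568844 ran from 2721 to 4122 in controls (median 2908), 6862 to 9061 at 3 µM (median 7323) and 4072 to 4589.8 at 10 µM (median 4370.4). At 30 µM it was 2468 to 3387 and at 100 µM 2517 to 3022. The 3 µM group lay above all others, and the 2 highest doses overlapped the controls. Its changes were 1.27, 0.48, -0.09 and -0.18 (each ± 0.10), the first 2 called. The second was lost with libraries scaled to total reads, and with fish as a block the fall at 100 µM was called (adjusted p = 0.0230).

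Alpha subunits that bind laminin in mammals went different ways. The integrin alpha-7-like gene LOC106583707 ran from 902 to 1582 in controls (median 1293), 1339.8 to 2393 at 3 µM (median 2028), 1742 to 4047 at 10 µM (median 2653), 1980.0 to 5206 at 30 µM (median 3063) and 2537 to 6465 at 100 µM (median 2999.5). From 10 µM on it lay above all controls, with changes of 0.65, 1.08, 1.33 and 1.45 (each ± 0.22). The integrin alpha-3-like gene LOC106600863 ran from 269 to 492 in controls (median 343), 309.6 to 572 at 3 µM, 201 to 341 at 10 µM, 81.0 to 188 at 30 µM and 42.6 to 202 at 100 µM. At 30 and 100 µM it lay below all controls, with changes of -1.38 ± 0.25 and -1.52 ± 0.25 (adjusted p = 4.33e-05 and 1.24e-05, limma). The integrin alpha-6-like LOC106586229 changed sign, with 0.67 at 3 µM and -0.76 at 100 µM, both called. The other genes of these names did not share this, as the alpha-3 gene itga3 and the alpha-6-like LOC106600084 were called at no AsIII dose. For the RGD-binding alpha-V subunit, itgav was called at no dose and the alpha-V-like LOC106586912 rose by 0.44 to 0.69 at all 4.

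Copies of one integrin also differed. Integrin beta-5 pairs with alpha-V. The beta-5-like gene LOC106582337 ran from 46.3 to 218 in controls (median 93.2), 132 to 538 at 3 µM (median 264), 154.8 to 492 at 10 µM, 122 to 364 at 30 µM and 118 to 376 at 100 µM. It overlapped the controls at every dose, yet was higher in 6 of 6 fish at each, with changes of 1.48, 1.28, 1.18 and 1.00 (each ± 0.33). The beta-5-like gene LOC106586391 ran from 141 to 245 in controls (median 180.3), 176.2 to 256 at 3 µM, 101.2 to 159.8 at 10 µM, 28.5 to 92.7 at 30 µM and 50.9 to 80.9 at 100 µM. It lay below all controls at the 2 highest doses, with changes of -1.59 ± 0.22 and -1.54 ± 0.22, and with fish as a block the change of -0.49 at 10 µM was also called. The ratio of LOC106586391 to LOC106582337 had a median of 2.18 in controls and 0.301 at 100 µM. The integrin beta-4 gene itgb4, a subunit of hemidesmosomes, was lower at 3, 30 and 100 µM (-1.90, -1.53 and -1.61), and the low-expressed beta-3-like LOC106607266 rose by 3.61 at 10 µM.

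**Figure D4:**
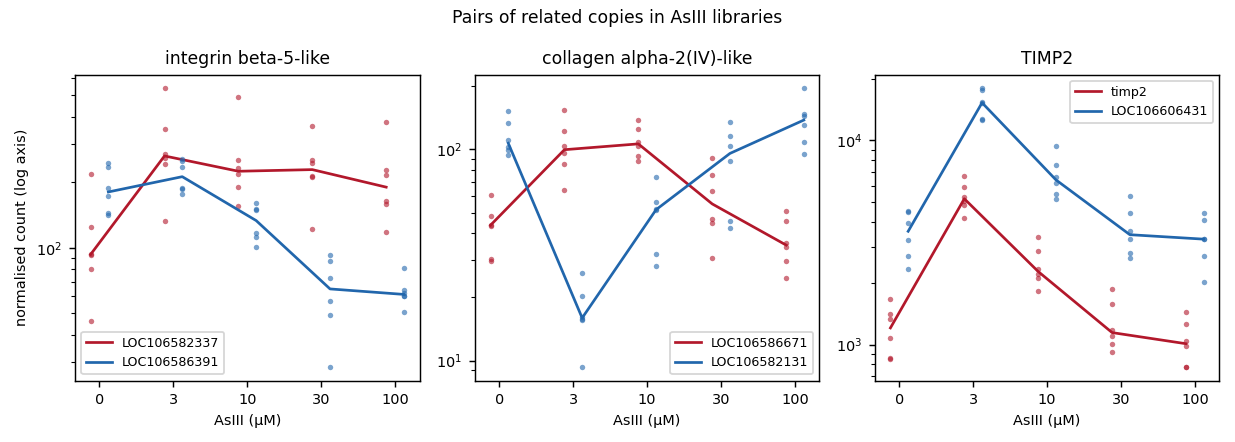
Normalised count (log axis) of 3 pairs of related gene copies in the AsIII libraries by dose; points are libraries of 6 fish and lines join group medians. The 2 copies named integrin beta-5-like and the 2 named collagen alpha-2(IV)-like part at some doses, while timp2 and LOC106606431 keep a ratio near 0.337.

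Of the 5 TIMP genes, 3 were higher at 3 and 10 µM, 1 was lower at 30 and 100 µM and 1 was called at no dose. The called share was 60%, 60%, 20% and 20%, against 54.5%, 47.2%, 41.6% and 39.9% of all genes. TIMP2 inhibits MMPs and, with MMP14, takes part in the activation of MMP2. LOC106606431, TIMP2-like, ran from 2333 to 4518 in controls (median 3584), 12628 to 17925 at 3 µM (median 15256) and 5130.1 to 9324 at 10 µM (median 6397). It was at 2639.9 to 5347 at 30 µM and 2019.7 to 4386 at 100 µM, overlapping the controls. Changes were 2.14 ± 0.19 at 3 µM and 0.94 ± 0.19 at 10 µM, and from 10 to 30 µM it fell by 0.88 ± 0.19. The gene timp2 behaved alike, with 852 to 1671 in controls, 4179 to 6686 at 3 µM and a change of 2.18 ± 0.19. The ratio of timp2 to LOC106606431 was 0.337 at the median of all 72 libraries (0.227 to 0.475), and reads of such copies could be shared. A further TIMP2-like gene, LOC106606432, which neighbours timp2 in the RefSeq table, changed by -1.48 and -1.42 at 30 and 100 µM, both called.

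Among the 12 MMP genes, 3 were higher and 2 lower at 3 µM, 1 and 1 at 10 µM, 3 and 0 at 30 µM, and 2 and 0 at 100 µM. The called share was 41.7%, 16.7%, 25% and 16.7%, against 54.5%, 47.2%, 41.6% and 39.9% of all genes. MMP14 and MMP15 are membrane-anchored collagenases. The MMP15-like gene LOC106587140 ran from 1836 to 3566 in controls (median 2799.5), 604 to 1584 at 3 µM (median 869), 873 to 2950.4 at 10 µM, 1183 to 4971 at 30 µM and 1382 to 5154 at 100 µM. The 3 µM group alone lay below all controls, with a change of -1.56 ± 0.39 (adjusted p = 0.00147, limma). With fish as a block the change at 10 µM (-0.80) was also called. The MMP14-like LOC106600280 ran from 682 to 926 in controls and from 398 to 632 at 3 µM, without overlap, and changed by -0.76 ± 0.15 there. In all, LOC106600280 was called lower at 2 of 4 AsIII doses. The MMP14-like LOC106577791, at 7911 to 10341 in controls, was called at no dose, and with fish as a block at 10 and 30 µM (0.26 and 0.23). A further MMP14-like gene, LOC106608848, was instead called higher at 2 of 4 AsIII doses, 30 and 100 µM.

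MMP9 is a gelatinase known from leukocytes and from stressed tissue. The MMP9-like gene LOC106566399 ran from 23.2 to 46.5 in controls (median 34.5), 156.5 to 237 at 3 µM (median 185) and 15.8 to 87.5 at 10 µM (median 52.9). Only the 3 µM group lay apart, with a change of 2.41 ± 0.39, and the step to 10 µM was -2.10 ± 0.39 (adjusted p = 9.15e-05, limma). The second copy, mmp9, rose by 1.78 ± 0.52 at 3 µM, where its range of 75.3 to 146 overlapped the controls at 9.59 to 144.

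Of the 40 genes that share only words of the name, 14 were higher and 5 lower at 3 µM, and 15 and 3 at 100 µM. That is 47.5% and 45% called, against 54.5% and 39.9% of all genes. LOC106604029, named integrin beta-like protein A, had the largest rise of all members at 3 and 10 µM. All its controls were under 10, where a fall can hardly be called. LOC106604029 thus passed the filter on low values only through treated AsIII libraries. It ran from 0 to 5.76 in controls, with 3 of 6 libraries at 0, from 103.7 to 277 at 3 µM, from 340.4 to 827 at 10 µM, from 30.4 to 87.3 at 30 µM and from 3.61 to 53.8 at 100 µM. The change was 7.77 ± 0.51 at 10 µM, and its falls from 10 to 30 and from 30 to 100 µM were called (-3.06 ± 0.51 and -2.39 ± 0.51). The ADAMTS2-like gene LOC106604833, named for a procollagen N-propeptidase, was lower at all 4 doses. It ran from 142 to 350.1 in controls (median 233), 31.6 to 56.9 at 3 µM (median 33.3), 40.6 to 108 at 10 µM, 51.9 to 96.7 at 30 µM and 35.1 to 140.1 at 100 µM. No treated library reached the lowest control, with changes of -2.56, -1.84, -1.57 and -1.74 (each ± 0.28). The other ADAMTS2-like genes did not fall, as LOC106563762 was called higher at 2 of 4 AsIII doses and LOC106563724 at none.

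AsV called few members, and a filter on low values kept 147 members. At 10 µM no member was called by limma, edgeR or DESeq2, none had an unadjusted p under 0.05, and 0% of all genes were called. At 50 µM, 3 members were higher and 6 lower, beside 6.97% of all 25465 tested genes, 4.23% higher and 2.74% lower. At 100 µM, 2 were higher and 5 lower (all genes 6.68%, as 4.47% and 2.21%). The median change of the members was -0.42 and -0.32 at these doses, against -0.07 and -0.06 over all genes. Up to 28 members were at 0 in a library at 50 µM and up to 17 at 100 µM, against 2 to 4 in the controls. Without the 3 treated libraries of fish 3, an alternative chosen after seeing the data, the median change of the members was -0.31 and -0.25, with 0 higher and 9 lower at 50 µM and 8 higher and 9 lower at 100 µM. Without fish 1, 2 or 3 the calls numbered 1, 1 and 2 at 50 µM, and 0, 0 and 8 at 100 µM. Every AsV call named in the next 2 paragraphs was lost without at least 1 of the 3 fish.

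Of the genes higher under AsV, LOC106606431 (TIMP2-like) was at 4400.5, 2874 and 3116 in the AsV controls of fish 1 to 3, at 9948, 6092 and 13854 at 50 µM and at 14726, 11311 and 5769 at 100 µM. All treated libraries lay above the controls, and the changes were 1.47 ± 0.38 and 1.54 ± 0.38 (adjusted p = 0.0317 and 0.0271, limma). For timp2 the changes were 1.42 ± 0.43 and 1.399 ± 0.43, with adjusted p-values of 0.0651 and 0.0693, and both were called with fish as a block. The collagen gene col6a2 was at 37.2, 50.4 and 45.7 in controls, 130.2, 105 and 221 at 50 µM and 197, 139.5 and 124 at 100 µM, with changes of 1.69 ± 0.45 and 1.75 ± 0.45 (adjusted p = 0.0358 and 0.0322, limma). Without the treated libraries of fish 3 the 50 µM calls of LOC106606431 and col6a2 were lost (adjusted p = 0.0788 and 0.0538, limma) and timp2 was called at 100 µM (1.88 ± 0.39).

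The MMP15-like LOC106587140 was lower under AsV, at 2658, 2327 and 4111 in controls, 727, 627 and 976 at 50 µM and 514, 612 and 1850.4 at 100 µM. The groups did not overlap, and the changes were -1.94 ± 0.41 and -1.81 ± 0.41 (adjusted p = 0.0140 and 0.0202, limma). The ADAMTS2-like LOC106604833 was at 306, 289 and 224 in controls and 44.9, 100.2 and 8.51 at 50 µM, a change of -2.94 ± 0.76 that was lost in edgeR. The collagen alpha-2(IV)-like LOC106582131 was at 73.6, 136 and 126 in controls and 11.2, 12.5 and 68.5 at 100 µM, with a change of -2.28 ± 0.64 (adjusted p = 0.0488, limma) that was lost in edgeR and with libraries scaled to total reads. Of the integrins, the alpha-4-like LOC106582202 fell by 2.79 ± 0.63 at 50 µM, a call lost without the treated libraries of fish 3 (adjusted p = 0.0813, limma). The CTGF-like LOC106572617 was not called under AsV. It was at 23.8, 12.2 and 18.6 in controls and at 105, 115 and 8.70 at 100 µM, where fish 3 was below all 3 controls. Without the treated libraries of fish 3 it was called at 100 µM (2.58 ± 0.66, adjusted p = 0.0237, limma).

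AsIII and AsV share the doses of 10 and 100 µM, where the difference between their responses was tested over all 72 libraries. The SE of a difference therefore also takes in the spread among AsB libraries. At 10 µM, 12 members had a higher AsIII response and 2 a lower one, beside 10.7% of 25830 genes, 6.94% higher and 3.74% lower. With libraries scaled to total reads this was 8 and 4. LOC106572617 differed by 6.15 ± 1.69 (adjusted p = 0.0092, limma), LOC106577876 by 4.00 ± 0.92 and LOC106604029 by 7.83 ± 1.36. The collagen alpha-1(XVIII)-like LOC106581675 differed by 1.28 ± 0.30 and the ADAMTS2-like LOC106604833 by -1.90 ± 0.60. The difference of LOC106572617 was lost without fish 2, that of LOC106581675 without fish 3 and that of LOC106604833 without fish 1 or fish 2, and with fish as a block 27 members were called.

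At 100 µM, 17 members had a higher AsIII response and 3 a lower one, beside 14.1% of all genes, 6.82% higher and 7.27% lower. The laminin beta-4-like LOC106561510 differed by 2.66 ± 0.65, LOC106582131 by 2.50 ± 0.62, the MMP15-like LOC106587140 by 1.82 ± 0.58 and LOC106581675 by 1.60 ± 0.30. The 3 with the lower AsIII response were LOC106586391, integrin beta-5-like (-1.90 ± 0.53), LOC106606431 (-1.64 ± 0.38) and timp2 (-1.59 ± 0.43). For the 2 TIMP2 genes the AsIII change at 100 µM was -0.10 and -0.19, neither called (the second was with fish as a block, adjusted p = 0.0382), and the AsV change 1.54 and 1.399. Without fish 2 the differences of LOC106561510, LOC106582131, LOC106586391, LOC106587140 and timp2 were lost, and those of LOC106581675 and LOC106606431 kept their calls without any 1 fish. With fish as a block 34 members were called. For LOC106572617 the difference at 100 µM was 0.49 ± 1.69 (adjusted p = 0.908, limma), an SE too wide to show that the responses are alike. That SE takes in the AsB libraries too, some of which were at 0 for this gene in every AsB group.

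**Figure D5:**
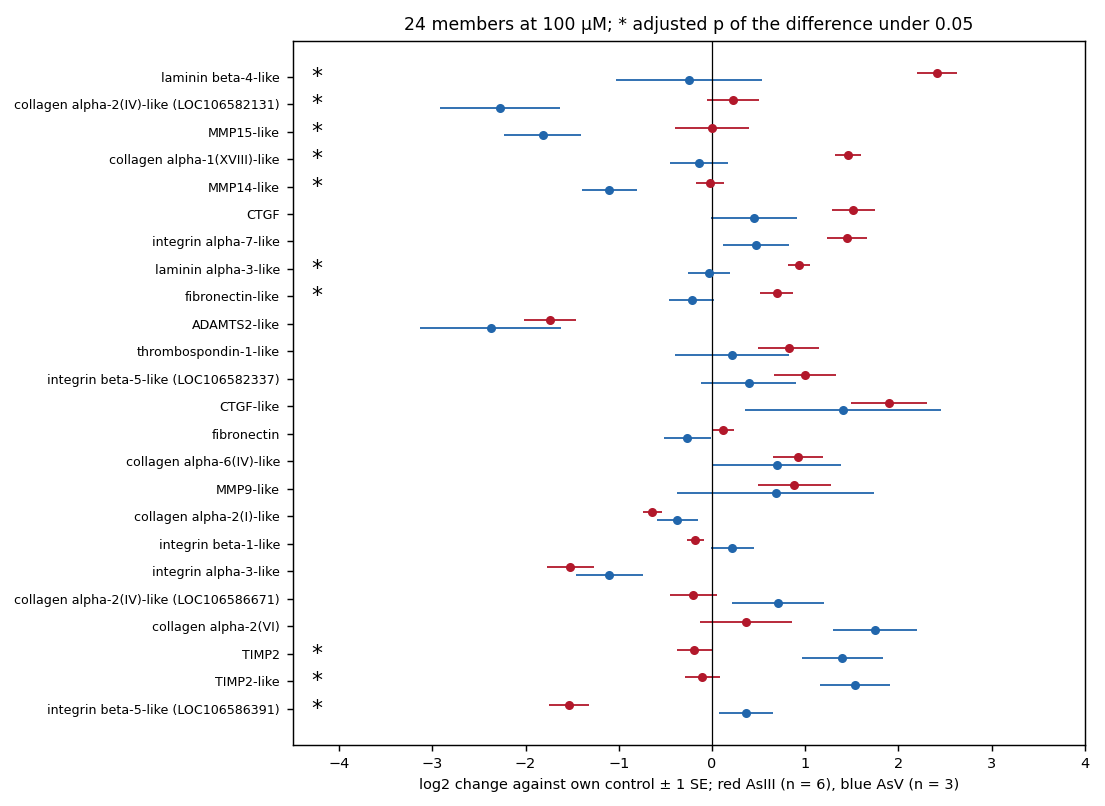
Log2 change ± 1 SE of 24 members at 100 µM AsIII (red, 6 fish) and AsV (blue, 3 fish), each against its own control, ordered by the difference; a star marks an adjusted p of the difference under 0.05. The laminin beta-4-like gene LOC106561510 is at the top, with 2.42 and -0.24, and the integrin beta-5-like gene LOC106586391 at the bottom, with -1.54 and 0.37.

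AsB called no member at 10, 50, 100 or 500 µM in limma, edgeR or DESeq2, and 0% of all 25492 tested genes in limma. Of the 145 members tested, 4, 2, 3 and 0 had an unadjusted p under 0.05. LOC106572617 had medians of 20.5, 4.30, 13.3, 2.03 and 5.48 from control to 500 µM, with libraries at 0 in every group. The TIMP2-like LOC106606431 had medians of 3417, 3652, 3364, 3463 and 3433, and the integrin beta-1-like LOC106568844 of 2928, 3236, 3442, 3287 and 3388. The ctgf level ran from 119 to 636 over the AsB libraries, and the library of fish 1 was the highest in 9 of the 10 AsIII and AsB groups.

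Other matrix genes, 51 named by textbook role, were 25 higher and 2 lower at 3 µM AsIII and 29 and 2 at 10 µM. At 30 µM 26 were higher and 4 lower, and at 100 µM 22 and 3. The medians were 0.59, 0.63, 0.46 and 0.54. The called share was 52.9%, 60.8%, 58.8% and 49.02%, against 54.5%, 47.2%, 41.6% and 39.9% of all genes. The 51 include enzymes that fold and cross-link collagen. At 3 µM the collagen prolyl 4-hydroxylase-like LOC106577060 rose by 4.72 ± 0.69 and the collagen chaperone serpin H1-like LOC106581278 by 3.93 ± 0.47. The plasminogen activator inhibitor 1-like LOC106577897, an inhibitor of plasmin formation, rose by 4.72 ± 0.13 at 3 µM AsIII and by 1.70 ± 0.36 at 50 µM AsV. The lysyl hydroxylase gene plod1 rose by 1.69 ± 0.36 and 1.97 ± 0.36 at 50 and 100 µM AsV. The matricellular cyr61, a relative of CTGF, rose by 3.88 ± 0.33 at 3 µM AsIII. In the same list the urokinase receptor gene LOC106578012 fell by 3.95 ± 0.75 at 30 µM. Under AsV 3 of the 50 tested were higher and 1 lower at each of 50 and 100 µM. That is 8% called at each, against 6.97% and 6.68% of all genes.

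A list of 133 genes held proteins of cell adhesion and of YAP signalling. It also held many TGF-beta ligands, their receptors and SMAD genes, so its counts are not of adhesion genes alone. Of the 133, 71 were higher and 9 lower at 3 µM AsIII and 57 and 10 at 10 µM. At 30 µM 47 were higher and 9 lower, and at 100 µM 43 and 10. The medians were 0.79, 0.48, 0.35 and 0.31. The called share was 60.15%, 50.4%, 42.1% and 39.85%, against 54.5%, 47.2%, 41.6% and 39.9% of all genes. The fermitin 3-like LOC106563456, a kindlin that activates integrins, rose by 2.51 ± 0.52 at 3 µM and 6.11 ± 0.52 at 30 µM. A TGF-beta-1-like gene, LOC106569003, rose by 4.12 ± 0.64 at 10 µM. The angiomotin-like 2a gene LOC106560623, a YAP-binding scaffold, rose by 3.25 ± 0.14 at 3 µM, and a YAP1-like gene, LOC106595041, by 3.23 ± 0.71. At 100 µM another YAP1-like gene, LOC106604063, fell by 2.47 ± 0.47. Under AsV, 4 of 131 were higher and 10 lower at 50 µM, where the TGF-beta co-receptor tgfbr3 fell by 3.83 ± 0.96, and 4 and 5 at 100 µM. That is 10.7% and 6.87% called, against 6.97% and 6.68% of all genes.

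Markers of other liver cells were measured in the same libraries. The summed values of 18 hepatocyte genes ran from 5109500 to 5940900 in AsIII controls and from 4891100 to 6349100 over the 4 AsIII doses. Single genes of this list moved both ways. At 3 µM, 3 were higher and 5 lower, at 10 µM 6 and 4, and at both 30 and 100 µM 5 and 4. The called share was 44.4%, 55.6%, 50% and 50%, against 54.5%, 47.2%, 41.6% and 39.9% of all genes. Of 9 stellate cell and fibroblast markers, 5 are collagens and so members. The other 4 summed to 96.8 to 195 in controls and 79.3 to 249 over the doses. Of these, smooth muscle actin (LOC106578961) rose by 1.77 and 1.74 at 3 and 10 µM, and the lecithin retinol acyltransferase-like LOC106602563 was lower at both (-2.11 and -3.40). Over all 9, 4 were higher and 1 lower at 3 µM, 5 and 1 at 10 µM, 4 and 1 at 30 µM, and 2 and 0 at 100 µM. That is 55.6%, 66.7%, 55.6% and 22.2% called, beside the same shares of all genes. The 6 endothelial markers summed to 279.6 to 551 in controls and 411 to 789 over the doses. Their median log2 change was -0.13, 0.34, 0.28 and 0.37 at the 4 AsIII doses. Unlike this median from 10 µM on, kdr was lower at all 4 doses (at 3 µM not with fish as a block). Among these 6, 1 was higher and 1 lower at 3 µM, 2 and 1 at 10 µM, 2 and 2 at 30 µM, and 1 and 1 at 100 µM. That is 33.3%, 50%, 66.7% and 33.3% called, beside the same shares of all genes. The 6 leukocyte markers summed to 59.4 to 135 in controls and 71.8 to 254 over the doses, and the 6 biliary ones to 204 to 414 and 151.2 to 387. Of the leukocyte markers 16.7%, 16.7%, 16.7% and 33.3% were called, each time higher. Of the biliary ones 16.7%, 16.7%, 16.7% and 50% were called, with 1 lower at every dose and 2 higher at 100 µM. The 8 globin genes summed to 90.2 to 460.0 in controls, 274 to 744 at 3 µM, 33.6 to 481 at 10 µM, 4.98 to 202 at 30 µM and 0 to 113 at 100 µM. Of these 8, 2 were higher and 0 lower at 3 µM, 1 and 0 at 10 µM, and 0 and 4 at both 30 and 100 µM. That is 25%, 12.5%, 50% and 50% called, against 54.5%, 47.2%, 41.6% and 39.9% of all genes. No marker in these lists was at 0 in all libraries of an AsIII or AsV group. The part of these cells in the changes was not tested.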

How the data were processed

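The deposited table holds the signal values that the authors made from RNA-seq reads. Per the submitters' processing notes, HISAT2, Subread with featureCounts and DESeq2 1.40.2 were used. Divided by 1 step per library, 100% of values were whole reads (tolerance 0.01), so the values are counts over size factors of 0.658 to 1.78. No genome build or strand setting is given in the sources used here.

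Changes were fitted with limma 3.58.1 (R 4.3.3) on log2(value + 1), with a mean trend and robust variance, within each compound, and between compounds over all 72 libraries. A gene was tested where its value reached 10 in a number of libraries no lower than the size of a compound's smallest group. Alternatives were edgeR 4.0.16 and DESeq2 1.42.0 on the whole reads, library-size scaling, a pseudocount of 10, other filters, fish as a block, and leaving out each fish, the 2 AsIII libraries that stood apart or, added after seeing the data, the 3 treated AsV libraries of fish 3. The method was tested on simulated data.

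Replicate numbers mark the same fish. Deviations of same-fish libraries correlated on average by 0.440 (AsIII), 0.230 (AsV) and 0.240 (AsB) over 19394 genes, and no 2 libraries of a group were copies.

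Members, lists and tests were chosen with earlier results of these data known. In that choice LOC106572617 was set for naming by its symbol. Most other named members have, within a class, the largest called changes per dose, the highest means, calls at all 4 AsIII doses or with both signs, or the largest called steps and compound differences. Further genes that share the name of such a member were added for contrast, after their values were seen. From the other lists up to 4 genes per comparison were named by size.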

Additional observations from a re-analysis of the deposited data

Results flagged for a closer look

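Among 24 members whose values are given by library, 17 of 240 group values held 1 library far from the other 5, each time the highest. The cut-off gives about 1 in 20 for independent values with a normal spread. Unlogged counts of the same fish in many groups are not such values, so no comparison with chance is drawn. For ctgf it was fish 1, at 646 in the AsIII control (next highest 273), 570.3 at 50 µM AsB (288) and 608 at 100 µM AsB (235). For timp2 it was also fish 1, at 1868 at 100 µM AsB (1156) and 1616.5 at 500 µM AsB (1261). Fish 1 was highest for the integrin alpha-7-like LOC106583707, at 5206 at 30 µM AsIII (3119) and 6465 at 100 µM AsIII (3343). It was also highest for the collagen alpha-2(IV)-like LOC106586671, at 106 at 50 µM AsB (39.6) and 38.995 at 500 µM AsB (24.1). Fish 4 was highest for the integrin beta-5-like LOC106582337, at 492 at 10 µM AsIII (252) and 195 at 10 µM AsB (83.8), and had the highest value in 9 of its 10 groups. The CTGF-like LOC106572617 reached 76.2 in fish 4 at 500 µM AsB (16.04). LOC106577876, collagen alpha-6(IV)-like, reached 109 in fish 2 at 10 µM AsB (48.0). For col6a2 the values were 114 in the AsB control of fish 4 (35.9), 107 in fish 3 at 10 µM AsB (68.2) and 113 in fish 4 at 50 µM AsB (27.1). The MMP9-like LOC106566399 reached 62.3 in fish 6 at 10 µM AsB (22.9).

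By the test of the difference itself in limma, the AsIII response differed from the AsV response in 16 cases among the same 24 members. All members gave 14 calls at 10 µM and 20 at 100 µM, and of all genes 10.7% and 14.1% were called. Members had been named partly for the largest called differences between compounds. The count of 16 is thus partly fixed by that choice, and no comparison with all genes is drawn from it. At 10 µM the difference was 0.56 for LOC106568844, 6.15 for LOC106572617, 4.00 for LOC106577876, 1.28 for LOC106581675, 1.11 for LOC106583707 and -1.90 for LOC106604833. Without the treated AsV libraries of fish 3 the differences of LOC106568844 and LOC106583707 at 10 µM were lost (adjusted p = 0.0545 and 0.224, limma). At 100 µM the difference was 2.66 for LOC106561510, 0.965 for LOC106569186, 0.91 for LOC106574791, 1.60 for LOC106581675, 2.50 for LOC106582131, 1.82 for LOC106587140 and 1.08 for LOC106600280. It was negative at 100 µM for timp2 (-1.59), LOC106586391 (-1.90) and LOC106606431 (-1.64).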

How the results depend on the processing

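Members called at 3, 10, 30 and 100 µM AsIII numbered 70, 70, 61 and 62, and leaving out each fish in turn gave 63 to 71, 57 to 65, 49 to 59 and 51 to 57. The dose steps gave 32, 26 and 4, and 19 to 29, 17 to 21 and 2 to 4 without a fish. AsV gave 9 at 50 µM and 7 at 100 µM, and 1 to 2 and 0 to 8 without a fish. The compound difference gave 14 at 10 µM and 20 at 100 µM, and 7 to 11 and 6 to 19 without a fish. DESeq2 called 16 members at 50 µM and 13 at 100 µM AsV, and edgeR called 9 for the difference at 10 µM. With fish as a replicate block, AsV gave 11 at 100 µM and the difference 27 and 34, while the AsIII doses gave 82, 85, 71 and 73 and the dose steps 47, 38 and 6. Without the treated AsV libraries of fish 3, chosen after seeing the data, AsV gave 9 at 50 µM and 17 at 100 µM, and the difference 9 at 10 µM and 24 at 100 µM. For the named members the block ended no call and added 84. Scaling to total reads ended 39 calls with the sign kept and added 29. It also turned 2 small changes, adamts13 at 3 µM (-0.0138) and LOC106569067 at 10 µM AsIII (-0.0182). With edgeR 27 calls ended and 19 were added, and with DESeq2 9 ended and 38 were added. Leaving out 1 fish ended between 41 (fish 5) and 74 (fish 2) calls and added 3 to 11. The causes were not tested. AsV has 3 fish, and 71 members have low counts, where only large changes can be called.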
